A study of Mus musculus with 8 samples.

Results

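The comparison described is that of JSH-23 with vehicle in *Arid1a* KO Myc-CaP tumors, and its members are the 4 samples, of 8 in the series, whose genotype is Myc-CaP *Arid1a* KO, 2 given vehicle and 2 given JSH-23. Myc-CaP is a mouse prostate cancer cell line driven by a *MYC* transgene, and its cells carried the control vector EV, called WT here, or a guide RNA directed at *Arid1a*, called *Arid1a* KO. Male FVB hosts, 6 weeks old, received the cells under the skin, and from day 16 JSH-23 (dissolved in DMSO and diluted in corn oil) or its vehicle, named as corn oil in the labels and as DMSO in a figure legend of the paper, was given by gavage every day for 2 weeks. Cells positive for EpCAM and negative for CD45 were sorted from the tumors, their total RNA was sequenced, and the other 4 samples are the WT tumors, 2 with vehicle and 2 with JSH-23. The labels do not say whether the 2 samples of a group came from separate tumors or animals. The p-values therefore measure the spread between these samples, which may not hold the variation between tumors, and this applies to the interactions as well. Total counts were 17559823 and 20066676 in the *Arid1a* KO vehicle samples, 19353506 and 21972231 in the *Arid1a* KO JSH-23 samples, 16650998 and 16803946 in WT vehicle, and 17792910 and 16401581 in WT JSH-23. CPM is here a count relative to the library size after scaling by TMM, a factor that adjusts for library composition. A count of 3 in an *Arid1a* KO library, taken as the lowest level told from 0, stood for 0.166, 0.145, 0.162 and 0.144 CPM, and such limits and the intervals below cover counting error only.

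NF-κB is a family of dimeric transcription factors, held in the cytoplasm by IκB proteins until IκB kinases mark these for degradation, after which subunits such as p65 (*Rela*) enter the nucleus. JSH-23 is a small molecule that hinders the nuclear entry of p65. Among the targets of NF-κB are chemokines that act on CXCR2, a receptor that draws neutrophils and related myeloid cells into tissue, and genes for its own inhibitors, and ARID1A is a DNA-binding subunit of the SWI/SNF complexes, which move nucleosomes.

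*Arid1a* itself (chromosome 4, 133679008 to 133756769, GRCm38) was detected at 103 and 106 CPM with vehicle and 93.8 and 95.9 CPM with JSH-23 in the *Arid1a* KO samples, and at 156 and 161 CPM and 144 and 155 CPM in WT with vehicle and with JSH-23. The *Arid1a* KO and WT vehicle samples differed by a log2 fold change of -0.60 (SE 0.0364, adjusted p 1.4e-23), and within *Arid1a* KO, JSH-23 against vehicle gave -0.14 (adjusted p 0.00136), far under the 1.5-fold used to call a change. A guide RNA can leave a transcript in place, and the counts do not show whether it can be translated. The sort label was checked against epithelial genes, and several that define it were near 0. *Epcam* had 0, 4, 0 and 1 counts in the vehicle and then the JSH-23 samples of *Arid1a* KO, and 0, 1, 0 and 0 in the WT samples. *Krt18* had 5, 11, 18 and 18 in the *Arid1a* KO samples. Of 47 genes listed for epithelial identity and cell junctions, 15 never passed 10 counts in an *Arid1a* KO sample, and 32 were tested. Other epithelial and prostate genes were expressed: *Krt8* had 113 and 112 CPM with vehicle, *Krt19* 104 and 102 CPM, and *Hoxb13* 52.3 and 62.4 CPM. The gene with the most counts was *Fn1*, for fibronectin, at 16917 and 16869 CPM with vehicle and 17197 and 17315 CPM with JSH-23. The samples are therefore called by their genotype and treatment below.

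The counts were tested in 13921 genes with edgeR's quasi-likelihood test over all 8 samples, and a gene was called raised or lowered at a Benjamini-Hochberg adjusted p under 0.05 with a fitted change of at least 1.5-fold. JSH-23 raised 1267 genes (9.10%) and lowered 2358 (16.9%) in the *Arid1a* KO samples. Among the 9194 genes whose mean CPM over the 4 samples was 10 or more, 779 were raised (8.47%) and 809 lowered (8.80%). In all 1588 of these the vehicle and JSH-23 samples did not overlap, which the criterion makes likely at a small spread between samples. The share of all 9194 genes without overlap is not given here. Most of the called changes were moderate: 110 of the raised and 249 of the lowered genes changed at least 2-fold, and 5 and 22 at least 4-fold. At an adjusted p under 0.05 with no fold threshold, 4013 of the 9194 genes were higher and 3040 lower, and the spread between samples was small, with a biological coefficient of variation common to all genes of 1.61%. With TMM and the 1.5-fold threshold, the excess of lowered genes lay mainly at low levels. There were 365 raised and 1044 lowered among 3086 genes at 1 to 10 CPM, and 123 and 505 among 1641 genes under 1 CPM. At 10 CPM or more, lowered genes were also in excess at 2-fold and 4-fold. The same held at 1.5-fold with no scaling (445 raised and 1152 lowered) and on log2(TPM + 1) (210 and 1481). How many genes count as raised depends on the settings. Of the called genes at 10 CPM or more, 49.1% were raised with TMM and 50.2% with DESeq2 size factors, but 27.9% with no scaling beyond library size and 12.4% in limma on log2(TPM + 1), which also changes the test and the unit. The median log2 fold change of these 9194 genes was 0.063 with TMM, -0.051 with no scaling and -0.17 on log2(TPM + 1), so changes of a list are read below against these medians. Over all 13921 genes the medians were -0.020, -0.13 and -0.20. Genes in the lists described are read against the background shares of 8.47% raised and 8.80% lowered, and members under 10 CPM against the 10.3% raised and 32.8% lowered of all 4727 genes there. For the other criteria the shares of the 9194 genes were 4.04% raised and 5.07% lowered by JSH-23 in WT, 3.02% more positive and 4.12% more negative in *Arid1a* KO by the test of the difference between genotypes, the interaction, and, at an adjusted p under 0.05 with no fold threshold, 43.6% higher and 33.1% lower.

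**Figure D1:**
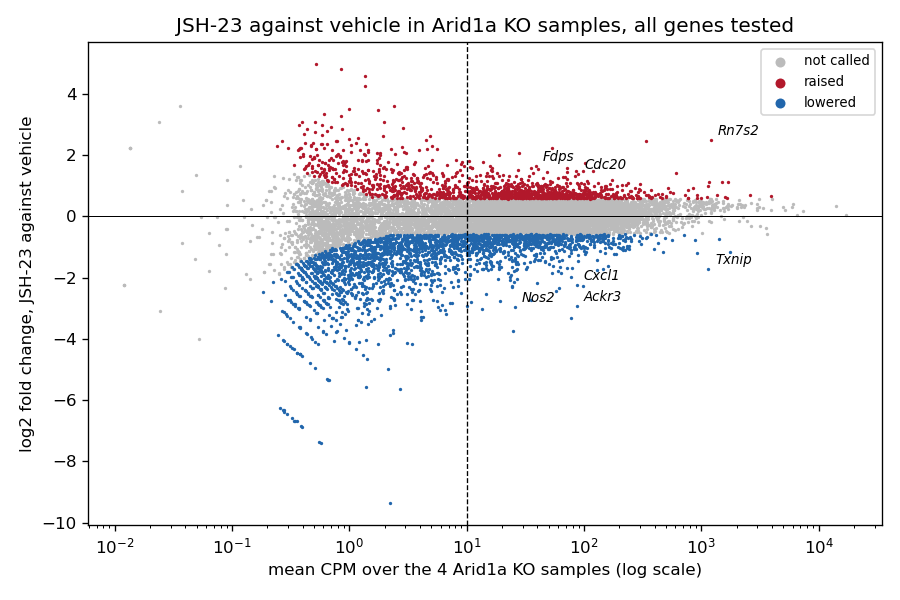
Each point is 1 of the 13921 genes tested, with its mean CPM over the 4 Arid1a KO samples on a log axis and its log2 fold change for JSH-23 against vehicle; red and blue points passed an adjusted p under 0.05 and 1.5-fold, and the dashed line marks 10 CPM. To the right of the line 779 genes were raised and 809 lowered, while the blue points at the lower left are genes at or near 0 counts with JSH-23, whose fitted change is no bound.

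The ligands of CXCR2 moved most as a group: of 5 tested at 10 CPM or more, 0 were raised and 4 lowered, with a median log2 fold change of -1.84. *Cxcl1*, chromosome 5, 90891245 to 90893121, was at 146 and 143 CPM with vehicle and 29.5 and 31.1 CPM with JSH-23. Both JSH-23 samples stood far below either vehicle sample. The test gave a log2 fold change of -2.25 (SE 0.0523, adjusted p 9.6e-48). *Cxcl2*, its neighbour in the same cluster on chromosome 5, was at 61.1 and 62.9 CPM with vehicle and 9.08 and 9.54 CPM with JSH-23, a log2 fold change of -2.73 (SE 0.0846, adjusted p 2.8e-40). *Cxcl5* was at 96.5 and 104 CPM with vehicle and 25.1 and 30.5 CPM with JSH-23, a log2 fold change of -1.84 (SE 0.0565, adjusted p 1.6e-40). In both genes the vehicle samples were high and the JSH-23 samples low, with no overlap. *Ppbp*, which encodes the precursor of CXCL7, went from 13.5 and 13.9 CPM to 6.43 and 6.57 CPM, a log2 fold change of -1.07 (SE 0.13, adjusted p 1.3e-11). *Cxcl15*, the exception, was at 11.5 and 12.7 CPM with vehicle and 12.6 and 14.9 CPM with JSH-23, the groups overlapped, and no change was detected (log2 0.18, adjusted p 0.154). *Cxcl3* was scarce, with 21 and 23 counts with vehicle and 0 and 0 with JSH-23, and fell at least 7.43-fold. It passed the filter on low counts only through samples other than the *Arid1a* KO JSH-23 samples, so no p-value is given. *Arid1a* KO and WT were also compared with vehicle, a comparison that shares the *Arid1a* KO vehicle samples with the one described. There the log2 differences were 1.97 for *Cxcl1*, 2.31 for *Cxcl2*, 0.0099 for *Cxcl5* and 1.01 for *Ppbp*, beside -2.25, -2.73, -1.84 and -1.07 for JSH-23 against vehicle. In the WT samples, which share no sample with the *Arid1a* KO effect, JSH-23 against vehicle gave -1.67, -1.89, -1.99 and -1.98, so the same ligands were lowered there. The difference between genotypes, tested as an interaction, was -0.58 for *Cxcl1* (adjusted p 8.9e-06), just under 1.5-fold, and -0.84 for *Cxcl2* (adjusted p 2.0e-04), a larger fall in *Arid1a* KO, and 0.91 for *Ppbp* (adjusted p 0.00198), a smaller one. For *Cxcl5* it was 0.15 (adjusted p 0.179).

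Promoters of the ligands were read, since 4 of the 5 at 10 CPM or more were lowered, from RefSeq sequences on GRCm38.p6, each 300 bases running from 250 before to 50 after the start of the gene. Both strands were searched for GGANTTTCC, a form of the κB motif, and it was present in 392 of 27025 genes with a promoter (1.45%). It was found in 3 of the 5 ligand genes with a promoter in the table, *Cxcl1*, *Cxcl2* and *Cxcl3*, and not in those of *Cxcl15* and *Ppbp*, while the promoter of *Cxcl5* was not analysed here. Among the NF-κB feedback inhibitors it was found in 3 of 11 genes with a promoter, *Cyld*, *Nfkbia* and *Tnfaip3*. The 3 ligand promoters, on the plus strand at chr5:90890995-90891294, chr5:90903649-90903948 and chr5:90785851-90786150, are given 5′ to 3′ with the match in capitals, which is a description of the letters and not evidence of binding.
Cxcl1: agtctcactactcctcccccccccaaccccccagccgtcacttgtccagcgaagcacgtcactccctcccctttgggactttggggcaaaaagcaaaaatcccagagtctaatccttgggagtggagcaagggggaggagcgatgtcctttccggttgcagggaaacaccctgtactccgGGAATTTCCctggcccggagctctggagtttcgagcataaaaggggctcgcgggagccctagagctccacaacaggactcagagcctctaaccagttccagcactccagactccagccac
Cxcl2: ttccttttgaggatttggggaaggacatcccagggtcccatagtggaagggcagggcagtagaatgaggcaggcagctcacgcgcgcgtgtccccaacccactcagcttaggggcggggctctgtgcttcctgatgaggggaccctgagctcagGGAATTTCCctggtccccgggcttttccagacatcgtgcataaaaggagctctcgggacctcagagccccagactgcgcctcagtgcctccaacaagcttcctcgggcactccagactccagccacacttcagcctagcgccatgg
Cxcl3: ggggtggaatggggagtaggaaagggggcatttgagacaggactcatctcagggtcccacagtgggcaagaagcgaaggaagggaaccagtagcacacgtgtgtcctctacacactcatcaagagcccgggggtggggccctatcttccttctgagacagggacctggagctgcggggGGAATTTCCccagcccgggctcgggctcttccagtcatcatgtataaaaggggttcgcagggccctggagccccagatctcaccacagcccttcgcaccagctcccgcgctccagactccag

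**Figure D2:**
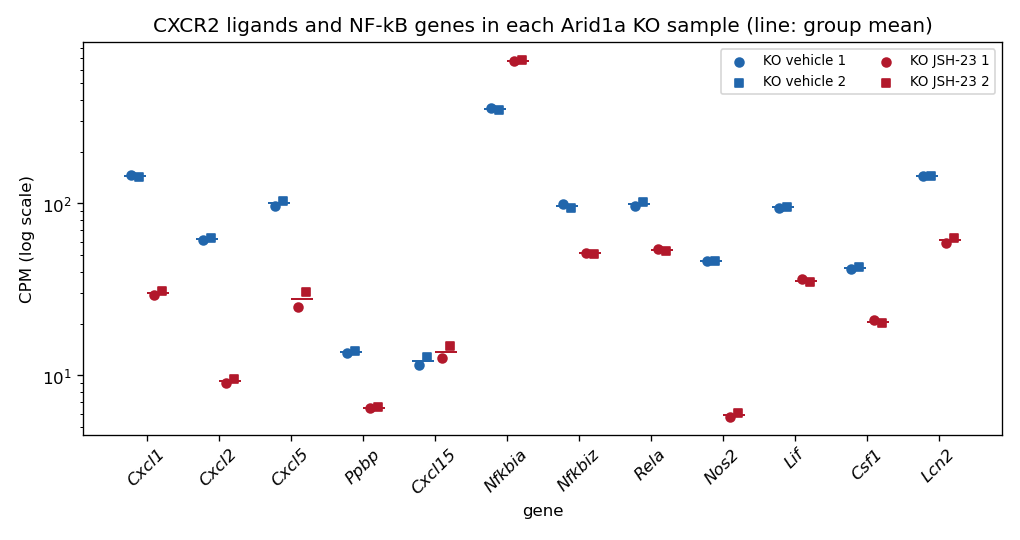
CPM on a log axis of 12 genes in each of the 4 Arid1a KO samples, vehicle in blue and JSH-23 in red, with a line at the mean of each group of 2. The JSH-23 samples lie below the vehicle samples in every gene shown except Cxcl15, whose groups overlap, and Nfkbia, where they lie above.

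Of 30 tested subunits, kinases and adaptors of NF-κB at 10 CPM or more, 3 were raised and 9 lowered (median -0.29). *Rela*, which encodes p65, was at 96.5 and 103 CPM with vehicle and 54.4 and 53.3 CPM with JSH-23, a log2 fold change of -0.89 (SE 0.046, adjusted p 1.5e-27). Its vehicle and JSH-23 samples did not overlap. Lowered with it were *Tlr3*, a receptor for double-stranded RNA (-1.45), and *Ikbke*, an IκB kinase relative (-1.06). *Tnfrsf1a*, a receptor for TNF (0.70), *Map3k14*, the kinase of the noncanonical pathway (0.65), and *Tab1* (0.59), which activates TAK1, were raised. The feedback inhibitors did not move together, with 1 raised and 1 lowered of 11 at 10 CPM or more (median 0.18, but -0.052 on log2(TPM + 1) and -0.055 on log2(TPM + 0.1)). *Nfkbia*, which encodes IκBα, rose from 359.8 and 352 CPM to 673 and 681 CPM, a log2 fold change of 0.93 (SE 0.0201, adjusted p 1.4e-49). *Nfkbiz*, for the nuclear protein IκBζ, fell from 99.99 and 94.3 CPM to 51.5 and 51.0 CPM, a log2 fold change of -0.92 (SE 0.0473, adjusted p 1.0e-27). These changes ran in opposite directions, each without overlap of the groups. *Nfkbid*, at a lower level, had 64 and 52 counts with vehicle and 6 and 21 with JSH-23 and was lowered (log2 -2.13, adjusted p 3.2e-07). *Tnfaip3*, which encodes the deubiquitinase A20, was at 138 and 139 CPM with vehicle and 164 and 156 CPM with JSH-23, a log2 difference of 0.20 (adjusted p 1.5e-07) under 1.5-fold, and -0.034 on log2(TPM + 1). The remaining members had log2 changes under the 1.5-fold threshold: *Nfkbie* (-0.57), *N4bp1* (-0.36), *Tnip1* (-0.25), *Bcl3* (0.049), *Tnip2* (0.16), *Traf3ip2* (0.18), *Otud7b* (0.26), *Nfkbib* (0.36) and *Cyld* (0.37), of which *Bcl3*, *Tnip2* and *Traf3ip2* were below 0 on log2(TPM + 1), and *N4bp1* overlaps a tested gene on the same strand. *Tnip3* was not tested, since it had too few counts. The interaction for *Nfkbia* was 0.35 (adjusted p 2.5e-16), with a rise of 0.58 in WT.

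Genes induced by NF-κB for survival and adhesion were lowered in 9 of 21 tested at 10 CPM or more and raised in 0 (median -0.29). *Nos2*, the inducible nitric oxide synthase, was at 46.0 and 46.3 CPM with vehicle and 5.73 and 6.04 CPM with JSH-23, a log2 fold change of -2.97 (SE 0.0985, adjusted p 1.7e-38). *Lcn2*, which encodes a siderophore-binding protein, fell from 145 and 144 CPM to 59.3 and 62.6 CPM (-1.24). Both genes were high with vehicle and low with JSH-23 in each sample. *Tnfaip2* (-1.30), *Junb* (-1.17) and *Ccnd1* (-1.05) were lowered in the same way. Of the cytokines and colony-stimulating factors, 7 reached 10 CPM, 1 raised and 3 lowered (median 0.15, but -0.083 on log2(TPM + 1) and -0.085 on log2(TPM + 0.1)), and over all 15 tested, 1 was raised and 10 were lowered. *Lif*, a cytokine of the interleukin-6 family, was at 94.7 and 95.6 CPM with vehicle and 36.3 and 34.8 CPM with JSH-23, a log2 fold change of -1.42 (SE 0.0519, adjusted p 4.0e-36). *Csf1*, a growth factor of macrophages, went from 41.4 and 42.6 CPM to 20.9 and 20.1 CPM (-1.04), and *Tnfsf9*, a costimulatory ligand, changed by -0.70. The raised member was *Il33*, an alarmin, named after its values were seen, at 18.1 and 16.4 CPM with vehicle and 27.1 and 28.8 CPM with JSH-23 (0.70). *Tnf* was near the limit of detection, with 14 and 19 counts with vehicle and 3 and 0 with JSH-23, a ratio of 11.2 (95% interval 3.50 to 56.9) lower with JSH-23. No other chemokine reached 10 CPM, and of 11 tested below it, 0 were raised and 5 lowered, among them *Cx3cl1* (-0.78), at a level where 32.8% of all genes were lowered.

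Interferon-stimulated genes were lowered in 6 of 16 at 10 CPM or more and raised in 2 (median -0.40), and over all 38 tested 23 were lowered and 3 raised (median -0.89). *Eif2ak2*, the kinase PKR, went from 40.3 and 38.1 CPM to 13.1 and 9.83 CPM (-1.78, adjusted p 2.0e-28), although it overlaps a tested gene on the same strand, so that its counts are uncertain. *Parp14* (-1.38), *Helz2* (-1.20) and *Herc6* (-1.09) were lowered as well. For class I antigen presentation the counts were 0 raised and 4 lowered of 14 (median -0.012, but 0.065 without vehicle sample 1 and 0.022 without JSH-23 sample 1), with falls in *Psmb10*, an immunoproteasome subunit (-1.04), *Tapbp*, which loads peptide onto class I molecules (-0.91), *Erap1*, a peptide-trimming protease (-0.87), and *Tapbpl* (-0.85). Complement and acute-phase genes had 2 lowered of 5, *Lcn2* and *C3*, the central complement component, which went from 222 and 217 CPM to 109.9 and 109 CPM (-1.002). Of 6 immune checkpoint ligands at 10 CPM or more, 0 were raised and 2 lowered, *Ido1*, a tryptophan-degrading enzyme, from 14.1 and 14.0 CPM to 6.27 and 6.43 CPM (-1.15), and *Pvr* (-0.63), while the median of the list was 0.35, and 0.11 on log2(TPM + 1).

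Markers of other cell types were read beside these falls, since in bulk samples fewer cells of a type cannot be told apart from less RNA per cell. The 10 macrophage and monocyte markers summed to 31.4 and 34.8 CPM with vehicle and 19.1 and 16.8 CPM with JSH-23, and 2 of the 7 tested were lowered. These were *Cd68*, the marker with the most counts, at 16.6 and 18.3 CPM with vehicle and 8.92 and 7.34 CPM with JSH-23, and *Cd14*, both named after their values were seen. The other 5 tested were not called, and the median log2 fold change of the 7 was -0.13. Among the markers, *Lyz2*, also named after its values were seen, was at 2.98 and 3.44 CPM with vehicle and 3.68 and 2.30 CPM with JSH-23, and its groups overlapped. *C1qa* was at 0 in the *Arid1a* KO samples, and *Adgre1* and *Itgam* were near 0. The 7 general leukocyte markers summed to 3.70 and 2.76 CPM with vehicle and 3.78 and 2.78 CPM with JSH-23, and none of the 4 tested was called by edgeR. Neutrophil markers summed to 0.387 and 0.291 CPM with vehicle and 0.108 and 0.192 CPM with JSH-23, with *Ly6g*, *Mpo*, *Retnlg*, *Camp* and *Ngp* at 0. Fibroblast markers summed to 65.6 and 65.8 CPM with vehicle and 43.6 and 42.0 CPM with JSH-23, nearly all from *Pdgfra* at 60.2 and 61.3 CPM with vehicle and 38.0 and 38.5 CPM with JSH-23, the 1 of 5 tested that was lowered. The part of these changes in the results was not tested.

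Among lists with at least 5 members at 10 CPM or more, the immediate early genes and the ATF4 response had the largest lowered shares of those members after the CXCR2 ligands. Over all members tested, cytokines (66.7%) and interferon-stimulated genes (60.5%) had larger lowered shares than the ATF4 response (55.8%). Of 27 immediate early and AP-1 genes at 10 CPM or more, 0 were raised and 17 lowered (median -0.76). *Fos*, a component of AP-1, was at 32.8 and 34.6 CPM with vehicle and 4.27 and 5.66 CPM with JSH-23, a log2 fold change of -2.75 (SE 0.11, adjusted p 1.7e-33). *Dusp1*, a phosphatase of MAP kinases, was at 100.3 and 96.1 CPM with vehicle and 19.3 and 17.1 CPM with JSH-23, a log2 fold change of -2.44 (SE 0.0638, adjusted p 1.4e-44). The vehicle samples of both genes lay several times above the JSH-23 samples. *Ier2* (-1.67) and *Btg2* (-1.65) were lowered too, and *Jund*, with the most counts of the list, went from 1737 and 1774 CPM to 1063 and 1067 CPM (-0.72). In WT, 10 of these genes were lowered and the median was -0.48, and the interaction was negative for 7 and positive for 1. With vehicle, the median log2 difference of *Arid1a* KO from WT in this list was 0.52, and the interaction shares these vehicle samples. ATF4 raises genes for amino acid supply under stress, and of 42 such genes 0 were raised and 23 lowered (median -0.60). *Trib3*, a pseudokinase, was at 162 and 164 CPM with vehicle and 35.8 and 31.7 CPM with JSH-23, a log2 fold change of -2.28 (SE 0.0482, adjusted p 3.8e-50). *Chac1*, which degrades glutathione (-1.84), *Nupr1*, a stress-induced regulator (-1.61), and *Sesn2*, a leucine sensor (-1.42), were lowered, and the 23 lowered members ranged between -2.28 and -0.59. In WT the same list had 3 lowered and 1 raised (median -0.19), and the interaction passed the threshold in 11 genes, all more negative in *Arid1a* KO, against 4.12% of all genes. Here too the interaction shares the vehicle samples, between which the median log2 difference of *Arid1a* KO from WT was 0.62. The unfolded protein response had 0 raised and 4 lowered of 35 (median 0.018, but -0.095 without scaling beyond library size, -0.22 on log2(TPM + 1) and -0.22 on log2(TPM + 0.1), and -0.0030 without vehicle sample 2), among them *Ddit3* (-1.09), *Dnajb9* (-1.41), *Sel1l* (-1.02) and *Herpud1* (-0.59). Of 25 p53 genes, 1 was raised and 4 lowered (median -0.061, and -0.0084 without JSH-23 sample 2), including *Cdkn1a*, an inhibitor of cyclin-dependent kinases, which went from 143 and 141 CPM to 93.1 and 88.7 CPM (-0.64), and *Trp53inp1* (-0.88). Apoptosis genes of the BCL2 family had 1 raised and 2 lowered of 21, a lowered share near that of all genes. *Bmf* (-0.90) and *Bcl2l11* (-0.89) were lowered and *Bax* (0.65), named after its values were seen, was raised, all 3 encoding proteins that promote cell death, and *Bcl2l11* overlaps a tested gene on the same strand.

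Genes of the cell cycle split by phase. Of 51 genes of DNA replication and S phase, 0 were raised and 24 lowered (median -0.49), the lowered ones between -1.55 and -0.62. *Rrm2*, a subunit of ribonucleotide reductase, was at 532 and 544 CPM with vehicle and 250.1 and 261 CPM with JSH-23, a log2 fold change of -1.07 (SE 0.0228, adjusted p 4.4e-50). *E2f8*, an atypical E2F repressor (-1.55), *Fen1*, a flap endonuclease (-1.48), *Cdc6*, which loads the replicative helicase (-1.39), and *Clspn*, a checkpoint adaptor (-1.38), were lowered further. In WT, 27 of these genes were lowered (median -0.64), and the interaction was called in 2 positive and 2 negative members. Genes of mitosis and G2/M went the other way, 22 raised and 5 lowered of 70 (median 0.33, and 0.096 on log2(TPM + 1)). *Cdc20*, an activator of the anaphase-promoting complex, was at 49.7 and 48.8 CPM with vehicle and 125 and 129 CPM with JSH-23, a log2 fold change of 1.37 (SE 0.042, adjusted p 1.6e-40). The JSH-23 samples were above both vehicle samples. *Ube2c*, the ubiquitin-conjugating enzyme of that complex (1.15), and *Sgo2a*, which protects cohesion at centromeres (1.13), were raised, and *Spc24* (-0.74) and *Spc25* (-0.76), of the kinetochore, and *Mybl2*, a regulator of late cell-cycle genes (-0.73), were lowered. *Top2a*, with the most counts of the list, went from 708 and 708 CPM to 987 and 995 CPM (0.48, adjusted p 3.6e-37), under 1.5-fold. In WT, 1 gene of the mitosis list was raised and 2 were lowered (median 0.0031), beside 4.04% and 5.07% of all genes, and 12 members had a more positive effect in *Arid1a* KO by the interaction, against 0 more negative (3.02% and 4.12% of all genes). For *Cdc20* the interaction was 1.25 (adjusted p 2.2e-29). G1 cyclins and kinases had 2 raised and 4 lowered of 18 (median -0.21), with *Ccne2* (-1.73) for cyclin E2 and *Cdk6* (-0.79) among the lowered. DNA repair genes had 3 raised and 9 lowered of 52 (median -0.24), with *Exo1*, an exonuclease (-0.98), lowered. Histone genes had 4 raised and 1 lowered of 10 (median 0.11, but -0.0023 without scaling beyond library size, -0.12 on log2(TPM + 1) and -0.13 on log2(TPM + 0.1)), and over all 20 tested 9 raised and 1 lowered. *H1f2*, a linker histone, rose from 11.8 and 9.74 CPM to 44.9 and 45.8 CPM (2.08), and *H1f0* (1.43) and *H2aj* (1.26) rose with it, although histone copies are near identical and reads may fall on either. *Myc* of the mouse, named after its values were seen, fell from 55.4 and 54.6 CPM to 22.2 and 24.4 CPM (-1.24, adjusted p 8.8e-26), with an interaction of -0.85 (adjusted p 3.3e-08), and the tables do not separate it from the transgene of the line. The MYC network as a list had 1 raised and 1 lowered of 11 (median 0.075, but -0.038 without scaling beyond library size, -0.16 on log2(TPM + 1) and -0.16 on log2(TPM + 0.1)).

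**Figure D3:**
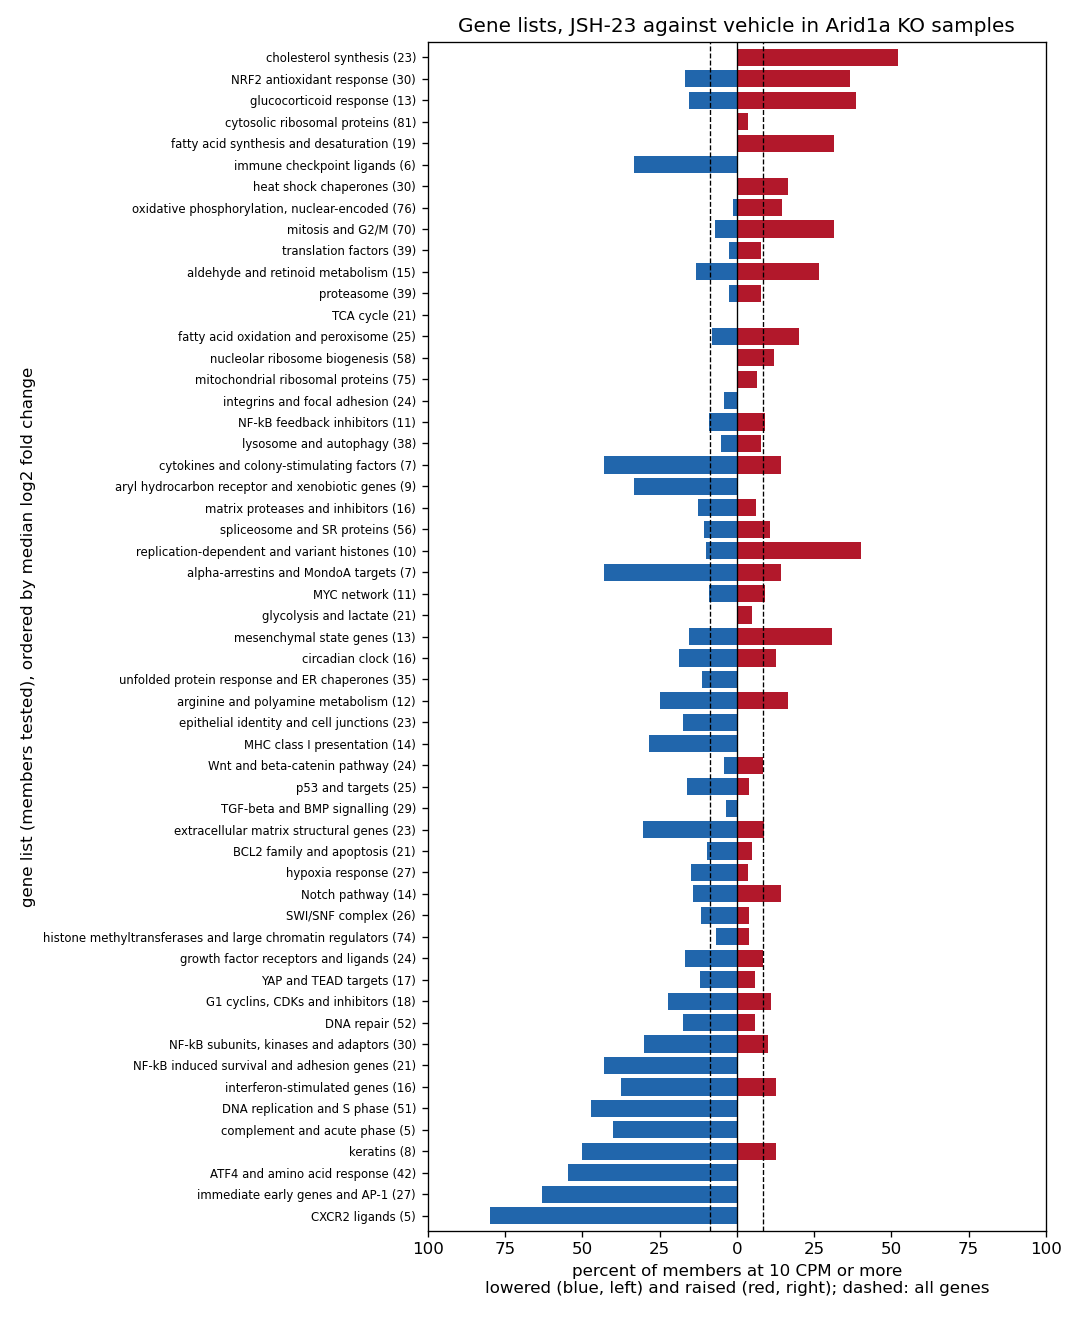
For each gene list described with at least 5 members at 10 CPM or more (their number in parentheses), bars give the percent lowered to the left and raised to the right by JSH-23 in Arid1a KO samples, ordered by the median log2 fold change, and dashed lines mark the 8.80% and 8.47% of all genes. CXCR2 ligands, immediate early genes and the ATF4 response have the lowest medians, and cholesterol synthesis the highest with 12 of 23 raised.

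Cholesterol synthesis had the largest raised share of any list with at least 5 members at 10 CPM or more: 12 raised and 0 lowered of 23 (median 0.68, and 0.42 on log2(TPM + 1)). *Fdps*, which makes farnesyl pyrophosphate, was at 18.1 and 19.0 CPM with vehicle and 59.1 and 58.2 CPM with JSH-23, a log2 fold change of 1.66 (SE 0.0684, adjusted p 4.6e-33). Every JSH-23 sample lay above every vehicle sample. *Mvd*, a decarboxylase of the mevalonate pathway (1.32), and *Srebf2*, the transcription factor that drives the pathway (0.71), were raised. The WT median was 0.25, and 7 members had a more positive effect in *Arid1a* KO by the interaction, against 0 more negative (3.02% and 4.12% of all genes). For *Fdps* the interaction was 1.03 (adjusted p 2.7e-13). Fatty acid synthesis and desaturation had 6 raised and 0 lowered of 19 (median 0.36, and 0.12 on log2(TPM + 1)), with *Fads1*, a desaturase (0.98), *Acss2*, which makes acetyl-CoA from acetate (0.88), *Fasn*, the fatty acid synthase (0.79), and *Acsl3* (1.27), an acyl-CoA synthetase whose gene overlaps another on the same strand. Fatty acid oxidation and peroxisomal genes had 5 raised and 2 lowered of 25 (median 0.27, and 0.036 on log2(TPM + 1)), among them *Cat*, catalase, which rose from 61.8 and 58.5 CPM to 103 and 100.3 CPM (0.76).

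Genes for protein synthesis and respiration had small positive medians, which were closer to 0 on log2(TPM + 1). The median of all genes at 10 CPM or more moved down as well, from 0.063 with TMM to -0.17 on log2(TPM + 1). Of 81 cytosolic ribosomal protein genes, 80 were higher with JSH-23 at an adjusted p under 0.05, against 43.6% of all genes, but 3 reached 1.5-fold (median 0.37, and 0.13 on log2(TPM + 1)), a share under the 8.47% of all genes, and reads of their processed copies may be misplaced. Nucleolar genes for ribosome assembly had 7 raised and 0 lowered of 58 (median 0.25, and 0.014 on log2(TPM + 1)), translation factors 3 and 1 of 39 (median 0.31, and 0.072), and mitochondrial ribosomal proteins 5 and 0 of 75 (median 0.24, and 0.0028), the raised shares of the last 2 also under the 8.47% of all genes. Nuclear genes of oxidative phosphorylation had 11 raised and 1 lowered of 76 (median 0.35, and 0.11 on log2(TPM + 1)), including *Ndufa1*, a subunit of complex I (0.78), and *Cox7b*, of complex IV (0.66). Their median in WT was 0.044, and 8 members passed the interaction, each more positive in *Arid1a* KO, against 3.02% of all genes. The 13 transcripts encoded in the mitochondrial genome were not analysed here. In the TCA cycle none of 21 genes was called by edgeR at 1.5-fold (median 0.30, and 0.058 on log2(TPM + 1)), although 17 were higher and 1 lower at an adjusted p under 0.05, against 43.6% and 33.1% of all genes, and in glycolysis 1 was raised of 21 (median 0.053, but -0.060 without scaling beyond library size, -0.18 on log2(TPM + 1) and -0.18 on log2(TPM + 0.1)). Genes of the hypoxia response had 1 raised and 4 lowered of 27 (median -0.13). Heat shock chaperones had 5 raised and 0 lowered of 30 (median 0.35, and 0.11 on log2(TPM + 1)). *Hsp90ab1*, a constitutive HSP90, rose from 3097 and 3019 CPM to 4819 and 4880.1 CPM, a log2 fold change of 0.67 (SE 0.0113, adjusted p 5.9e-56). *Hspa8*, a constitutive HSP70, rose by 1.005. Proteasome genes had 3 raised and 1 lowered of 39 (median 0.30, and 0.065 on log2(TPM + 1)), a raised share under the 8.47% of all genes.

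The antioxidant genes of NRF2 had 11 raised and 5 lowered of 30 (median 0.41, and 0.17 on log2(TPM + 1)). *Fth1*, the ferritin heavy chain, rose from 1966 and 1969 CPM to 3151 and 3214 CPM (0.69), and *Taldo1* (1.01), of the pentose phosphate pathway, *Gstp1* (0.96), a glutathione transferase, and *Txn1* (0.90), thioredoxin, were raised. *Hmox1*, heme oxygenase (-0.93), and *Srxn1*, sulfiredoxin (-0.85), were lowered, so the list did not move as one. In aldehyde and retinoid metabolism 4 were raised and 2 lowered of 15 (median 0.31, and 0.073 on log2(TPM + 1)). *Aldh1a1*, a retinaldehyde dehydrogenase, was at 1056 and 1058 CPM with vehicle and 2285 and 2333 CPM with JSH-23, a log2 fold change of 1.13 (SE 0.0136, adjusted p 2.5e-65). Glucocorticoid-responsive genes had 5 raised and 2 lowered of 13 (median 0.39, and 0.15 on log2(TPM + 1)), with *Pdk4* (1.10), *Errfi1* (0.86) and *Per1* (0.66) raised and *Dusp1* lowered. Clock genes had 2 raised and 3 lowered of 16 (median 0.023, but -0.091 without scaling beyond library size, -0.20 on log2(TPM + 1) and -0.21 on log2(TPM + 0.1)), with *Per2* (-0.71), *Per3* (-0.61) and *Ciart* (-1.10) lowered beside the rises of *Nr1d1* (1.05) and *Per1*. Of 7 alpha-arrestins and related genes 1 was raised and 3 were lowered. *Txnip*, which limits glucose uptake, was at 1773 and 1757 CPM with vehicle and 528 and 538 CPM with JSH-23, a log2 fold change of -1.73 (SE 0.0166, adjusted p 3.0e-71). It had the most counts of the 3 lowered alpha-arrestins, and *Arrdc3* (-1.22) and *Arrdc4* (-0.95) fell with it. Arginine and polyamine genes had 2 raised and 3 lowered of 12 (median 0.0099, but -0.10 without scaling beyond library size, -0.22 on log2(TPM + 1) and -0.23 on log2(TPM + 0.1)), with *Odc1*, ornithine decarboxylase (-0.64), and *Slc7a1*, an arginine transporter (-0.70), lowered beside *Nos2*. Xenobiotic genes of the aryl hydrocarbon receptor had 0 raised and 3 lowered of 9, and lysosome and autophagy genes 3 and 2 of 38.

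Structural genes changed in part. Of 8 keratins at 10 CPM or more 1 was raised and 4 were lowered (median -0.58), and *Krt4* was at 189 and 190.2 CPM with vehicle and 84.7 and 87.9 CPM with JSH-23, a log2 fold change of -1.13 (SE 0.0348, adjusted p 1.8e-40). *Krt80* (-1.05), *Krt15* (-1.003) and *Krt7* (-0.82) were lowered too. In WT 7 keratins were lowered (median -1.33), and the interaction was positive in 6, a smaller fall in *Arid1a* KO. Epithelial identity and junction genes had 0 raised and 4 lowered of 23 (median -0.0053, but 0.018 without vehicle sample 1 and 0.010 without JSH-23 sample 1), the lowered ones including the transcription factors *Elf3* (-1.12) and *Ovol1* (-0.79) and the junction proteins *Pkp3* (-0.76) and *Evpl* (-0.70). Mesenchymal genes had 4 raised and 2 lowered of 13 (median 0.035, but -0.078 without scaling beyond library size, -0.20 on log2(TPM + 1) and -0.20 on log2(TPM + 0.1)), and *Vim*, for vimentin, rose from 541 and 537 CPM to 987 and 984 CPM (0.87, adjusted p 1.2e-53). Among matrix genes 2 were raised and 7 lowered of 23 (median -0.091), with *Col6a3* (-1.25) and *Col5a1* (-0.79), collagen chains, lowered. *Fn1* did not pass 1.5-fold (0.031, adjusted p 4.2e-04), and its sign is not settled, since the difference was -0.083 with no scaling (adjusted p 1.8e-17) and -0.21 on log2(TPM + 1) (adjusted p 2.9e-06) and log2(TPM + 0.1) (adjusted p 2.6e-06). *Tnxb*, tenascin X, was at 2414 and 2435 CPM with vehicle and 1076 and 1087 CPM with JSH-23, a log2 fold change of -1.16 (SE 0.0135, adjusted p 3.1e-66), the called gene with the most counts among those lowered. For the SWI/SNF complex, of which ARID1A is a subunit, the raised and lowered members were 1 and 3 of 26 (median -0.14), the lowered ones including *Bcl7a* (-1.13), *Phf10* (-1.03) and *Smarcc2* (-0.83). Large chromatin regulators had 3 and 5 of 74 (median -0.15) and the spliceosome 6 and 6 of 56 (median 0.11, but -0.0017 without scaling beyond library size, -0.12 on log2(TPM + 1) and -0.13 on log2(TPM + 0.1)). Signalling lists had, raised and lowered, Wnt 2 and 1 of 24, TGF-β and BMP 0 and 1 of 29, Notch 2 and 2 of 14, YAP and TEAD targets 1 and 2 of 17, integrins 0 and 1 of 24, and matrix proteases 1 and 2 of 16. Growth factor receptors and ligands had 2 and 4 of 24, including falls in *Tgfa*, a ligand of EGFR (-0.91), and *Pdgfra* (-0.67). Lists with few members at 10 CPM or more were carbonic anhydrases with 1 and 0 of 2, syndecans and glypicans 1 and 0 of 4, neuronal genes 0 and 0 of 3 and motile cilium genes 0 and 0 of 2.

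Single genes with the largest changes lay partly outside these lists. The largest rise at 10 CPM or more was in the 7SL RNA of the signal recognition particle: *Rn7s2* was at 400.4 and 333 CPM with vehicle and 2107 and 1994 CPM with JSH-23, a log2 fold change of 2.49 (SE 0.0504, adjusted p 2.7e-51), and its copy *Rn7s1* changed by 2.45. The JSH-23 samples lay above the vehicle samples in both copies, which are near identical, so reads may fall on either. *H2ac23*, a histone H2A gene, went from 17.5 and 19.8 CPM to 88.0 and 86.7 CPM (2.22), and *Mipol1* (2.01) and *Chaserr* (1.74), a noncoding RNA beside *Chd2*, were raised, both overlapping tested genes on the same strand. *Mgp*, for matrix Gla protein, rose from 37.3 and 35.2 CPM to 107 and 109 CPM (1.58), and *Gchfr*, which inhibits GTP cyclohydrolase, rose from 5.36 and 5.67 CPM to 16.5 and 16.5 CPM (1.58). *Wwox* (1.57) and the noncoding or unnamed transcripts *Gm24224* (1.81), *Gm16141* (1.79), *F630048H11Rik* (1.64), *Gm40309* (1.62) and *Gm46594* (1.58) completed the 15 genes with the largest rise, with *H1f2* and *Fdps*, and *F630048H11Rik* and *Gm40309* overlap tested genes on the same strand. Among the largest falls at 10 CPM or more was that of *Cdsn*, corneodesmosin (-3.32). *Ackr3*, a scavenging receptor for CXCL12, was at 152 and 158 CPM with vehicle and 20.4 and 20.8 CPM with JSH-23, a log2 fold change of -2.91 (SE 0.0505, adjusted p 2.1e-55). Groups that did not overlap were a condition for naming these genes. *Mat2a*, which makes S-adenosylmethionine (-2.32), *Jak3*, a cytokine receptor kinase (-2.29) whose gene overlaps another on the same strand, *Atp2a3*, a calcium pump (-2.79), and *Hhipl1* (-2.54) were also among the 15 largest falls, with the noncoding transcripts *A630034I12Rik* (-3.04), *Gm30247* (-2.93) and *Gm32861* (-2.31). By class of transcript, 18 of 57 small nucleolar RNAs tested were raised and 0 lowered by edgeR (median 0.72), all of them under 10 CPM, where 10.3% of all genes were raised and 32.8% lowered. Transfer RNAs had 6 raised and 2 lowered of 12 tested (median 0.83), with 2 at 10 CPM or more, 1 of them raised. Of 1755 long noncoding RNAs 225 were raised and 590 lowered (median -0.36), but 1596 were under 10 CPM. There 12.7% of them were raised and 34.8% lowered, close to all genes at that level. Of the 159 long noncoding RNAs at 10 CPM or more 22 were raised and 35 lowered. Both shares were above the 8.47% and 8.80% of all genes at 10 CPM or more. At 1 to 10 CPM, *Dnaaf3*, an assembly factor of motile cilia, had 2 and 2 counts with vehicle and 32 and 72 with JSH-23, a ratio of 25.6 (95% interval 9.70 to 95.7) higher with JSH-23. Where both counts of a group were under 3, as here and in *Trp53cor1* below, the interval is to be read and not the ratio. The other 4 largest rises at 1 to 10 CPM were *Gm20199* (4.26), *Gm26165* (3.61), *Gm37383* (3.47) and *Gm10658* (3.08), the first 3 of which overlap tested genes on the same strand. *Gm46626* had 78 and 94 counts with vehicle and 0 and 0 with JSH-23 and fell at least 29.0-fold. *Trp53cor1*, the noncoding RNA next to *Cdkn1a*, had 49 and 57 counts with vehicle and 0 and 2 with JSH-23, a ratio of 53.8 (95% interval 14.5 to 450.2) lower. *Gm30215* had 91 and 117 counts with vehicle and 1 and 3 with JSH-23, a ratio of 52.8 (95% interval 20.3 to 196) lower, and *Tpbgl* and *Gm52510* were the other 2 in this group.

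In the WT samples JSH-23 raised 773 genes (5.55%) and lowered 1424 (10.2%) by the same criterion. Among genes at 10 CPM or more, 191 were raised in both genotypes, which is 24.5% of the 779 in *Arid1a* KO and 51.5% of the 371 in WT. For lowered genes the shared number was 345, or 42.6% of 809 and 74.0% of 466. None of the 779 raised genes was lowered in WT, and 2 of the 809 lowered genes were raised there, *Cpeb2* and *Extl1*, of which *Cpeb2* was named after its values were seen. *Cpeb2* changed by -0.70 in *Arid1a* KO and 0.84 in WT, and *Extl1* by -1.20 and 0.60. The interaction, which tests the difference itself, was called more positive in *Arid1a* KO for 460 genes (3.30%) and more negative for 802 (5.76%). At 10 CPM or more these were 278 and 379 genes, and 162 of the 779 raised and 219 of the 809 lowered genes passed it in their own direction. With the coefficient of variation fixed at 0.2 in place of 1.61%, 47 genes passed the interaction. So most genes called in *Arid1a* KO were not shown to differ from WT by 1.5-fold. The largest positive interactions at 10 CPM or more were *Rn7s1* (2.40), *Rn7s2* (2.31), *Ccn2* (1.95) and *H2ac23* (1.77), and the largest negative ones *Gm32856* (-1.96), *Dusp1* (-1.92), *Aoc2* (-1.82) and *Extl1* (-1.80). *Ccn2*, a YAP target, fell in WT (-2.25) and changed by less in *Arid1a* KO (-0.30). *Rn7s2* rose by 2.49 in *Arid1a* KO and changed by 0.18 in WT.

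**Figure D4:**
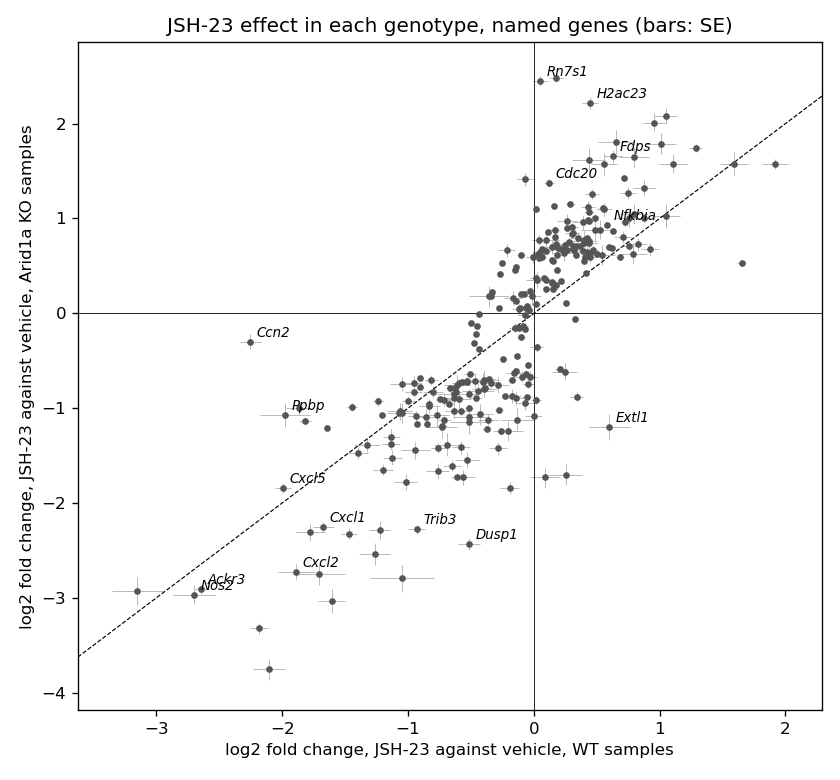
Log2 fold change for JSH-23 against vehicle in the WT samples (horizontal axis) and the Arid1a KO samples (vertical axis) for the named genes at 10 CPM or more, with bars of the SE on each side and a dashed line where both are equal. Ccn2 and Ppbp fell further in WT, and Rn7s1, H2ac23 and Cdc20 lie above the line.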

How the data were processed

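RNA-seq counts of 8 samples were used, 2 in each of 4 groups, assigned from the sample labels. The authors deposited read counts per gene without normalization for 39089 genes. The deposited tables also hold TPM values, which are length-corrected counts brought to the same total in every sample, which were used as an alternative. The paper's methods name TopHat2 and counting by strand with HTSeq-count on GRCm38/mm10, whereas the submitters' processing notes name HISAT2, HTSeq and DESeq2. Genes were filtered with filterByExpr, which left 13921, scaled with TMM (factors 0.949 to 1.03) and fitted with a mean per group over all 8 samples by edgeR 4.0.16 (R 4.3.3) with its quasi-likelihood test, and p-values were adjusted over all genes tested by Benjamini-Hochberg. Library sizes were recomputed after the filter and the spread was estimated without the robust option; these settings follow an earlier processing of the same files and were settled after other settings had been run. Each SE printed or drawn is the absolute log2 fold change divided by the square root of the test's F statistic, not a separate output of the fit. The 43 listed symbols missing from the tables were matched through older RefSeq names.

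Genes named are *Arid1a*, the CXCR2 ligands, the NF-κB feedback inhibitors and *Tnf*; the 15 largest changes each way at 10 CPM or more and the 5 at 1 to 10 CPM, with groups not overlapping; the leading members of each gene list; the 3 called genes with the most counts each way; and the 4 largest interactions each way. Not all of these are printed, and some of them and 1 list are not reported here. Members and lists were chosen with earlier results of these data known. Alternatives were DESeq2 1.42.0, limma 3.58.1 on TPM values, no scaling, other filters and thresholds, a replicate block, fixed spreads and leaving out each *Arid1a* KO sample.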

Additional observations from a re-analysis of the deposited data

Results flagged for a closer look

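The JSH-23 effect differed between *Arid1a* KO and WT samples, by a test of the difference itself with edgeR, in 460 genes that were more positive and 802 that were more negative in *Arid1a* KO, at an adjusted p under 0.05 and 1.5-fold. Of the genes at 10 CPM or more, *Rn7s1* had the largest positive difference, 2.40 on the log2 scale (adjusted p 8.4e-38). Its near-identical copy *Rn7s2* followed with 2.31 (adjusted p 2.9e-38). *Ccn2* differed by 1.95 (adjusted p 5.2e-23), and *H2ac23* by 1.77 (adjusted p 1.1e-25). On the negative side *Gm32856* differed by -1.96 (adjusted p 1.2e-15) and *Dusp1* by -1.92 (adjusted p 7.5e-24). *Aoc2* gave -1.82 (adjusted p 9.3e-15) and *Extl1* -1.80 (adjusted p 5.6e-11). In these 8 genes the effect in *Arid1a* KO was compared with that in WT over 2 samples in each of 4 groups, and the cause was not tested.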

How the results depend on the processing

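With no scaling beyond library size 843 genes were raised, 445 of them at 10 CPM or more. In limma on log2(TPM + 1) 407 were raised, and at 10 CPM or more 210 were raised and 1481 lowered; on log2(TPM + 0.1) these were 553, 240 and 1664. A test against the 1.5-fold threshold itself called 665 raised and 1479 lowered genes, and 436 raised at 10 CPM or more. With a biological coefficient of variation fixed at 0.1 the interaction was called in 747 genes, against 1262; at 0.2 it was called in 47, with 566 genes raised, and 274 raised and 443 lowered at 10 CPM or more. An adjusted p under 0.05 with no fold threshold gave 4651 raised and 4791 lowered genes, 4013 and 3040 at 10 CPM or more, since it drops a criterion. The cause was not tested for the other settings. The remaining 74 of 94 counts stayed within 1.5 times the reported value.

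Leaving out each *Arid1a* KO sample in turn gave 1255 to 1348 raised and 2154 to 2200 lowered genes, and 808 to 880 and 770 to 799 at 10 CPM or more; the lone sample left in a group was assumed to vary like the other groups. With the replicate number as a replicate block the counts were 1263, 2349, 778, 809 and, for the interaction, 1269. Other edgeR settings, chosen after seeing the data (library sizes over all genes, TMM before the filter, a robust spread, bias-adjusted deviances), gave 1273 to 1332 raised and 2310 to 2371 lowered genes, 779 to 825 and 780 to 809 at 10 CPM or more, and 1258 to 1281 for the interaction.

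Of 2088 results for the 174 genes followed, 1997 kept their direction and side of the adjusted p threshold, 79 kept their direction but no longer passed it, 43 of them at a coefficient of 0.2, and 1 kept its direction and passed it newly. That was *Cxcl15*, at 0.31 (adjusted p 0.0358) without JSH-23 sample 1. *Arid1a* was at -0.10 (adjusted p 0.0504) without that sample. *Tnip2* and *Traf3ip2* no longer passed without vehicle sample 1 (0.065 and 0.14) or without JSH-23 sample 1 (0.15 and 0.14). In 11 further results a change took the other sign. *Fn1* passed as lower, at -0.083 (adjusted p 1.8e-17) with no scaling and -0.21 on both log2(TPM + 1) (adjusted p 2.9e-06) and log2(TPM + 0.1) (adjusted p 2.6e-06). On these 2 scales *Bcl3* passed newly, at -0.19 (adjusted p 0.0145) and -0.19 (adjusted p 0.0137), while *Tnfaip3* at -0.034 and -0.035, *Tnip2* at -0.064 and -0.066, and *Traf3ip2* at -0.052 and -0.055 no longer passed (adjusted p 0.422 to 0.450). The cause was not tested, and the median of all genes shifted downward on the same scales. Among 58 list medians 10 changed sign with no scaling and 17 on log2(TPM + 1). The shift passed the difference of a list between replicates in 57 of them with no scaling, 58 on log2(TPM + 1) and 77 of 232 with a sample left out. With a sample left out no median shifted by more than 0.15, that of the CXCR2 ligands, or 0.089 in other lists, and 5 medians near 0 in 3 lists changed sign.

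At these depths a gene under 3 counts in a library was not told from 0. With 2 samples a group the spread rests on the fit across genes. Reads of near-identical or overlapping genes are uncertain in their placement.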

Other observations

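The 2 samples of a group differed by slightly more than counting noise, and chi-square divided by its degrees of freedom was 1.46 in *Arid1a* KO vehicle and 1.54 in *Arid1a* KO JSH-23. Vehicle and JSH-23 samples that share a replicate number did not move together, with a correlation of -0.011 across 9194 genes, which are not independent replicates.

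Endothelial markers summed to 4.42 and 3.29 CPM with vehicle and 3.46 and 1.87 CPM with JSH-23, and *Vwf*, 1 of 2 tested, was lowered (-1.09, adjusted p 0.011). Erythroid markers summed to 13.6 and 12.5 CPM with vehicle and 11.7 and 9.64 CPM with JSH-23, and none of the 3 tested was called by edgeR. Adipocyte markers summed to 43.9 and 49.7 CPM with vehicle and 64.8 and 60.2 CPM with JSH-23, nearly all from *Fabp4*. *Krt18* was the 1 epithelial marker of 7 tested that was called, raised by 1.14 (adjusted p 0.0452) at a level under 1 CPM. Neither *Vwf* nor *Krt18* passed with DESeq2 (adjusted p 0.104 and 0.177), and *Krt18* did not pass whichever *Arid1a* KO sample was left out (adjusted p 0.0528 to 0.309), with the replicate block (adjusted p 0.0531), with no scaling (adjusted p 0.0723) or with a coefficient of variation fixed at 0.2 (adjusted p 0.112). *Vwf* did not pass on log2(TPM + 0.1) (adjusted p 0.0816), without vehicle sample 2 (adjusted p 0.0645) or JSH-23 sample 2 (adjusted p 0.0582). Both are named after their values were seen.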
